A study of Sus scrofa with 74 samples.

Results

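The comparison described here is between pigs whose back muscle held high and pigs whose back muscle held low levels of leukocyte marker transcripts. The animals were chosen by a measured score, the mean z value of CD74, TYROBP and CD163 in each of 74 arrays, as those of the highest and of the lowest scores within each of 2 blocks of label numbers. There were 24 high and 24 low animals, 48 of 74 in all, and 26 animals in the middle. Block 1 holds the 24 animals with label numbers 1 to 33 and gave 8 animals a side, and block 2 holds the 50 animals with label numbers 60 to 114 and gave 16 a side. The labels leave a gap between these numbers and do not say what it is. The animals were an F2 generation of a Duroc and Pietrain cross, none of them a carrier of the RYR1 stress allele, and M. longissimus dorsi was sampled when the pigs were slaughtered, at 110 kg on average by the labels. All 74 form 1 untreated group, each measured once on the Affymetrix Porcine Genome Array. The labels hold neither the drip loss nor the sex, family, own weight or date of slaughter of an animal. Many of the animals are full sibs, whereas the p-values below treat animals as independent. They take no account of family and can be too small.

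Leukocytes reach skeletal muscle mainly as resident macrophages, which sit in the connective tissue around the fibres, clear debris and present antigen, and as monocytes and lymphocytes that enter from the blood when fibres are damaged or repaired. CD74 is the invariant chain that escorts MHC class II molecules to the endosome. TYROBP is a signalling adaptor of myeloid and natural killer cells, and CD163 is the haemoglobin scavenger receptor of macrophages. In RNA of whole muscle, more cells of a type and more RNA per cell of that type cannot be told apart.

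The groups were drawn from the arrays themselves, so a call below states that a transcript went with the score over these animals, and no treatment separates the groups. The score of the high animals ran from -0.04 to 2.22 with a median of 0.75, and that of the low animals from -1.55 to -0.39 with a median of -0.65. In block 1 the last animal taken as high had a score of 0.412 and the first left out 0.376, while the last taken as low had -0.509 and the first left out -0.167. In block 2 the same borders lay at -0.037 and -0.038 and at -0.393 and -0.388, so that these cuts fell between animals of nearly equal score.

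The 3 genes of the score are described without a test. On the log2 scale of the scaled array intensity, TYROBP ran from 8.20 to 10.46 in the high animals (median 9.14) and from 6.40 to 8.76 in the low animals (median 7.76). CD163 had medians of 10.19 and 9.23 and CD74 of 11.62 and 11.12. Over all animals of a block, the mean of CD163 was 9.16 in block 1 and 9.95 in block 2. For CD74 it was 11.62 and 11.21. Each gene overlapped between the groups, since an animal could be high through 1 gene alone. TYROBP went with CD74 (r = 0.78 over the 24 animals of block 1 and 0.48 over the 50 of block 2) and with CD163 (r = 0.44 and 0.42), whereas CD74 and CD163 went together less closely (r = 0.26 and 0.19). These are descriptions over arrays that share their scaling. A score without CD163 kept 19 of the 24 high and 20 of the 24 low animals, and a score without TYROBP kept 21 and 18.

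**Figure D1:**
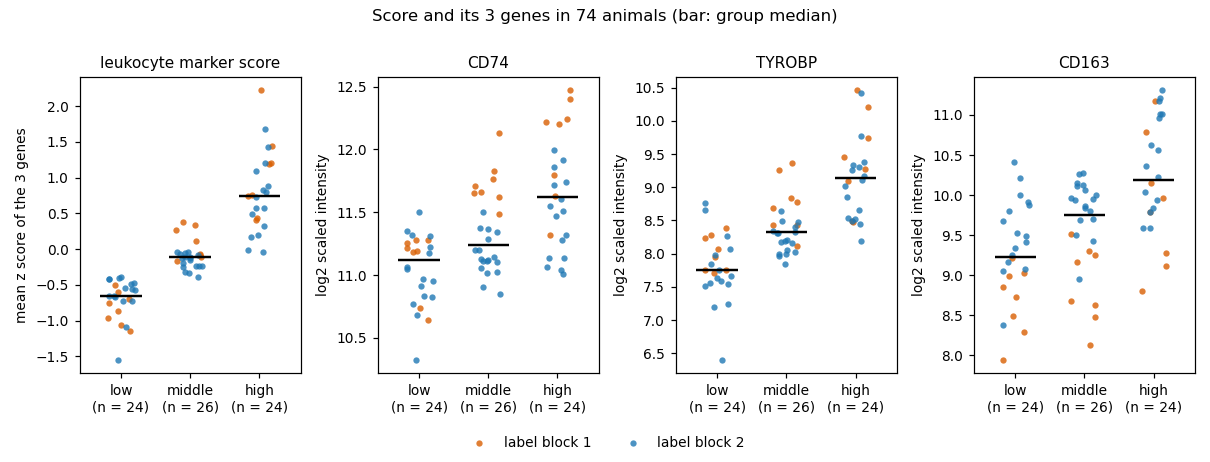
The first panel plots the mean z score and the others the log2 scaled intensity of CD74, TYROBP and CD163 in the low, middle and high animals, with 1 point per animal, coloured by label block, and a bar at the group median. The score separates the groups within a block by construction, while the levels of each single gene overlap, as with CD163 between 8.80 and 11.31 in the high and 7.94 and 10.42 in the low animals.

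Muscle fibre transcripts dominated every array: creatine kinase CKM lay between 15.07 and 16.34 and the slow myosin heavy chain MYH7 between 14.13 and 16.05 over the 74 animals. The level of the arrays before scaling, a trimmed mean of linear intensity, ran from 50.3 to 183 in the high and from 72.1 to 160 in the low animals, with a log2 difference of 0.08 between groups (two-sided permutation test within blocks, 100000 permutations, p = 0.274). The blocks differed in this level, with a median of 85.9 over the arrays of block 1 and 132.6 over those of block 2. Ranges of the high and low animals pool both blocks. The array of animal 23, a high animal of block 1, had the lowest level of all 74. Further high animals stood apart by their transcripts. Animals 26, 111, 112, 20 and 90 had the 5 highest values of 74 for TNNT2, LOC396711 and MYL4, and animal 114 had several granulocyte and erythroid transcripts far above those of any other animal. The counts of called genes are given with and without these animals where they change most.

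Of 4749 genes tested, each with 1 probe set (the set of short oligonucleotides that reads a transcript), 348 or 7.33% were higher and 108 or 2.27% lower in the high animals at an adjusted p under 0.05 (limma with label block as covariate and Benjamini-Hochberg adjustment over all 11450 probe sets). Counted as probe sets, 625 of 11450 (5.46%) were higher and 288 (2.52%) lower, 68.5% higher among those called. The direction was the same in both label blocks for all 625 and all 288. The blocks are parts of the animals that gave these calls, so the shared direction is no independent check. Fitted alone, block 1 gave 7 higher and 0 lower, and block 2 gave 82 and 5. The values as deposited, without scaling, gave 855 higher and 16 lower, 98.2% higher, so the number of lower transcripts depends on the scaling. Most differences were small. The called probe sets had a median log2 difference of 0.48 upwards and of -0.35 downwards, and 41 of the 625 and 3 of the 288 went past 1 on the log2 scale. No probe set passed the test of a difference between label blocks, with 970 of 11450 at an unadjusted p under 0.05 in limma. Without the 5 animals of the highest TNNT2, 171 and 28 probe sets were called, all of them among the 625 and the 288, and 2.27% of genes were higher and 0.316% lower. These animals held score ranks 1, 4, 14, 3 and 2 of 74. Leaving them out also narrows the score difference between the groups, so fewer calls follow in part from that choice here and below. Without animal 114 the counts were 560 and 251.

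Macrophage genes made up the largest share of called members among the lists with more than 10 genes tested. Of 21 macrophage and monocyte genes on the array, 14 passed the filter on low values and 13 of these were higher, with a median log2 difference of 0.76 against 0.004 over all genes tested. FOLR2 was the gene not called (log2 -0.02, SE 0.08, adjusted p = 0.919). The other 7 were too dim, and none of them was called in a fit of all 23995 probe sets without that filter. In that fit 3.79% of genes were higher. Without the 5 animals 10 of the 14 were called, and without animal 114 there were 12. Their summed intensity ran from 3896 to 8114 in the low and from 6310 to 25809 in the high animals, where animal 114 held the highest sum.

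FCGR3A, an activating receptor for the constant part of IgG, had the smallest p of all probe sets. Its log2 intensity lay between 8.06 and 9.58 in the low animals (median 9.02) and between 9.12 and 10.84 in the high animals (median 10.06), a 2.05-fold difference (log2 1.03, SE 0.11, adjusted p = 3.27e-08). In 20 of 24 high animals it was above the highest low animal. FCGR2B, the inhibitory counterpart of the activating IgG receptors, rose 1.76-fold (SE 0.12 on the log2 scale, adjusted p = 1.45e-05), from a median of 8.63 to 9.45. VSIG4, a complement receptor of resident macrophages, had medians of 8.26 and 9.02 and rose 2.0-fold (SE 0.14, adjusted p = 6.21e-06), and all 24 high animals lay above the median of the low animals of their block. TLR4, the receptor for bacterial lipopolysaccharide, rose 1.80-fold (SE 0.13, adjusted p = 1.67e-05), and its co-receptor CD14 rose by 0.68 on the log2 scale (SE 0.14, adjusted p = 0.00132). Of the other defining macrophage markers on the array, the mannose receptor MRC1 rose 1.58-fold (adjusted p = 0.00338) and the actin-binding AIF1 1.64-fold (adjusted p = 0.000339). All 7 of these genes were called with any 1 of the 48 animals left out and without the 5 animals.

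SPP1 and GPNMB, which macrophages make when they take up lipid or debris, changed most in this list. SPP1, the secreted glycoprotein osteopontin, ran from 3.24 to 10.68 in the low animals (median 8.35) and from 6.60 to 13.88 in the high animals (median 10.70), the largest upward difference among called genes that passed the filter at 4.68-fold (log2 2.23, SE 0.47, adjusted p = 0.0023). The groups overlapped broadly, with 12 of 24 high animals above the highest low animal and the highest value of all in animal 114. Animals 26, 111, 112, 20 and 90 held ranks 3, 4, 6, 5 and 9 of 74 for SPP1, and without these its adjusted p was 0.0431. SPP1 also went with TNNT2 (r = 0.66 over the animals of block 1 and 0.31 over those of block 2). The transmembrane glycoprotein GPNMB rose 2.19-fold (SE 0.19, adjusted p = 0.000103). The lectin LGALS3, a galectin abundant in activated macrophages, ran from 9.13 to 13.38 in the high and from 8.57 to 10.04 in the low animals and rose 2.35-fold (SE 0.26, adjusted p = 0.00271).

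The classical pathway of complement is set off by C1q, which tissue macrophages secrete, and passes through the proteases C1r and C1s. Of 12 complement genes tested, 7 were higher and none lower, with a median log2 difference of 0.58, and 7 were also called without the 5 animals and without animal 114. The C1q chain C1QA ran from 6.67 to 9.07 in the low animals (median 8.28) and from 8.26 to 10.28 in the high animals (median 9.25), a 2.14-fold difference (SE 0.13, adjusted p = 2.19e-07). Its partner chain C1QC lay between 8.69 and 11.16 and between 10.18 and 12.78 and rose 2.20-fold (SE 0.14, adjusted p = 5.57e-07). The groups overlapped, with 16 of 24 high animals above the highest low animal for each chain, and all 24 high animals were above the median of the low animals of their block. C1S rose 1.51-fold (SE 0.11, adjusted p = 0.000305), and clusterin CLU, an inhibitor of the terminal complex that many cell types make, 2.22-fold (SE 0.22, adjusted p = 0.000642).

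**Figure D2:**
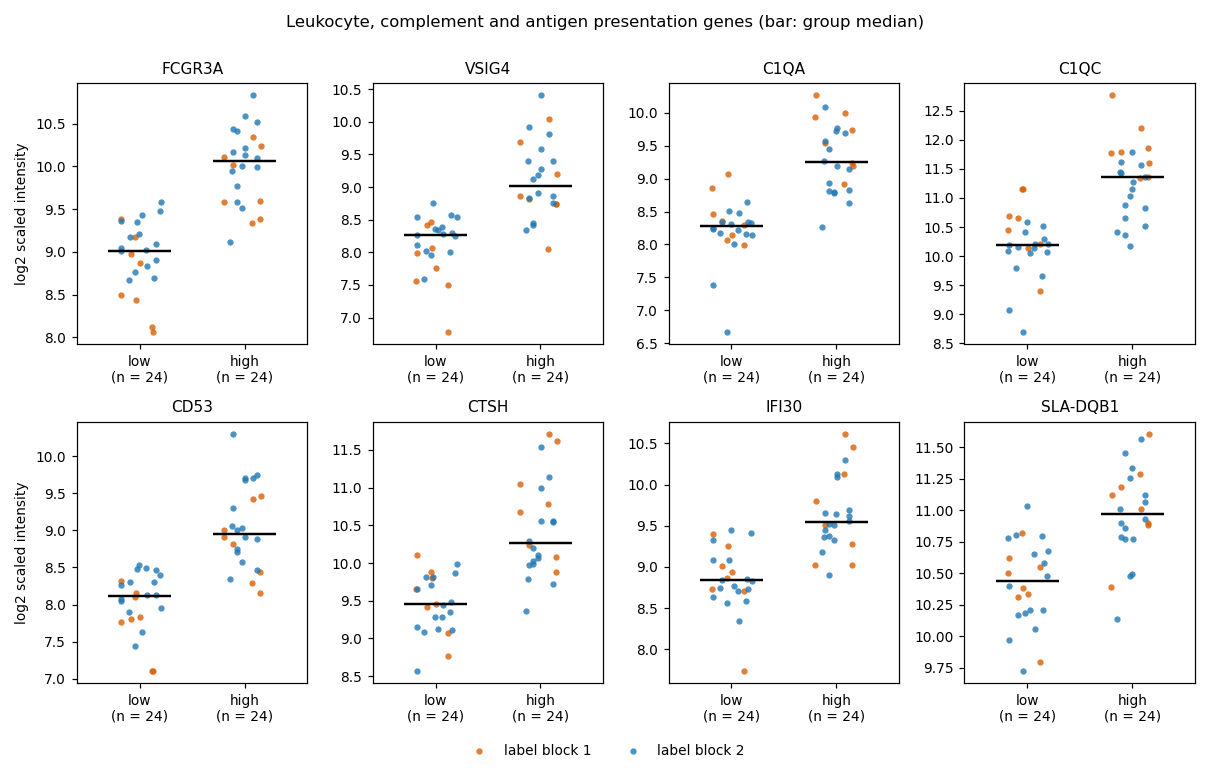
Each panel plots the log2 scaled intensity of 1 gene in the 24 low and 24 high animals, with 1 point per animal, coloured by label block, and a bar at the group median. For FCGR3A 20 of 24 high animals lie above every low animal and for CD53 19 do, while SLA-DQB1 has 10 such animals.

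A further list held genes of leukocyte signalling and motility, some shared by all leukocytes and some mainly myeloid. Of its 25 genes on the array 11 passed the filter, and 9 of these were higher, 5 without the 5 animals and 8 without animal 114. The tetraspanin CD53, a leukocyte surface protein, ran from 7.11 to 8.53 in the low and from 8.16 to 10.31 in the high animals, with medians of 8.12 and 8.96, and rose 2.0-fold (SE 0.13, adjusted p = 6.79e-07). LAPTM5, a lysosomal membrane protein of blood cells, rose 2.22-fold (SE 0.17, adjusted p = 8.49e-06). ITGB2, the integrin chain shared by the leukocyte adhesion receptors, rose 1.95-fold (SE 0.15, adjusted p = 3.13e-05), and FCER1G, the signalling chain that FCGR3A pairs with, 1.91-fold (SE 0.16, adjusted p = 0.000164). The summed intensity of the list ran from 1790 to 4328 in the low and from 2925 to 18514 in the high animals. The highest high sum was 7168 when animal 114 was left out.

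The other 14 genes of this list were too dim for the filter and were read in a fit of all 23995 probe sets, where 1.98% of probe sets were higher and 0.496% lower, and 3.79% and 0.769% of genes. Of the 14, 6 were called higher and none lower. The phagocyte oxidase subunit listed as GP91-PHOX ran from 2.57 to 8.24 in the low and from 5.31 to 10.18 in the high animals, a difference of 2.36 on the log2 scale (SE 0.41, adjusted p = 0.000564). NCF4, a cytosolic subunit of the same enzyme, had medians of 5.40 and 6.55 (log2 1.43, SE 0.25, adjusted p = 0.000497). SPI1, the transcription factor that sets the myeloid fate, had medians of 6.98 and 7.74 (log2 0.83, SE 0.17, adjusted p = 0.0042). PTPRC, the CD45 phosphatase that marks all leukocytes, had medians of 6.19 and 6.04 and was not called (log2 -0.24, SE 0.28, adjusted p = 0.747). These 4 were chosen after their values were seen.

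Lymphocyte markers lay near or below the filter. None of the 18 T and natural killer cell genes on the array passed it. In the fit of all probe sets 2 of the 18 were higher, beside 3.79% of all genes in that fit. They were the chemokine CCL5 (log2 1.20, SE 0.28, adjusted p = 0.0141) and the shared cytokine receptor chain IL2RG (log2 0.81, SE 0.23, adjusted p = 0.0402), and both were chosen after their values were seen. The T cell receptor chain CD3E had medians of 6.50 in the low and 6.62 in the high animals (adjusted p = 0.757), CD3D of 5.35 and 6.08 (adjusted p = 0.246) and the T helper marker CD4 of 4.11 and 3.63 (adjusted p = 0.527). Of the 2 B and plasma cell genes tested neither was called, and XBP1, a transcription factor of plasma cells that other secretory cells also use, differed by 0.25 on the log2 scale (SE 0.08, adjusted p = 0.0503). The B cell receptor chain CD79B was dim, with medians of 5.23 and 5.57 (adjusted p = 0.908). Most of the lymphocyte markers were not called, which does not show that there was no difference. NCF4, with a median scaled intensity of 62.5 beside 59.7 for CD3D, was called in the same fit. Its difference was larger, at log2 1.43 (SE 0.25) against 0.82 (SE 0.37) for CD3D. The part of dim signal in the missing lymphocyte calls was not tested.

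MHC class II molecules display peptides from the endosome to helper T cells, and the score itself holds their chaperone CD74. Of 8 class II genes tested 6 were higher, with a median log2 difference of 0.45, and 4 were called without the 5 animals. SLA-DQB1, a peptide-binding chain, ran from 9.72 to 11.03 in the low animals (median 10.44) and from 10.14 to 11.61 in the high animals (median 10.97), a 1.47-fold difference (SE 0.10, adjusted p = 0.000495). SLA-DQA1 rose 1.38-fold (SE 0.11, adjusted p = 0.00713), and SLA-DMB, which loads the peptide, 1.45-fold (SE 0.10, adjusted p = 0.000344). SLA-DRA and SLA-DRB1, named after their values were seen, rose 1.36-fold (adjusted p = 0.0116) and 1.34-fold (adjusted p = 0.015). Both missed the threshold without the 5 animals (adjusted p = 0.0536 and 0.0824). IFI30, the thiol reductase that unfolds antigens for this pathway, rose most at 1.71-fold (SE 0.12, adjusted p = 3.14e-05), from a median of 8.84 to one of 9.54. No tested class II gene went past 1 on the log2 scale.

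For MHC class I, which presents peptides from the cytosol, 5 of 14 genes were higher with a median log2 difference of 0.27, 2 were called after quantile normalization and none without the 5 animals. The peptide transporter TAP1 rose 1.41-fold (SE 0.15, adjusted p = 0.0285), the immunoproteasome subunit PSMB8 1.35-fold (adjusted p = 0.0315), the proteasome activator PSME1 1.25-fold (adjusted p = 0.0353) and the chaperone PDIA3 1.23-fold (adjusted p = 0.0168). Without the 5 animals these adjusted p lay between 0.115 and 0.248, and without the array of animal 23 PSME1 was not called (adjusted p = 0.0522). The class I heavy chains are near-identical copies that these probe sets cannot be trusted to separate, so their values are not given. They are still counted among the 14 genes. The called gene not named here is such a heavy chain, and it was called in 18 of the 48 fits that left out 1 animal. Of 14 interferon-stimulated genes 2 were higher, beside 7.33% of all genes tested, and in a list this short that is near this share. They were IFI44L at 1.33-fold (adjusted p = 0.00926) and the myeloid transcription factor IRF8 at 1.59-fold (adjusted p = 0.0246), and neither was called without the 5 animals.

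Lysosomal genes were higher for 12 of 28 tested, with none lower, a median log2 difference of 0.38 and 5 called without the 5 animals. The thiol protease CTSH had medians of 9.45 and 10.26 and rose 2.0-fold (SE 0.14, adjusted p = 8.4e-06). CTSS, the protease that trims the class II invariant chain, ran from 8.59 to 10.38 in the low and from 9.23 to 12.12 in the high animals and rose 2.0-fold (SE 0.17, adjusted p = 0.000151). CTSZ rose 1.78-fold (adjusted p = 0.000161) and the acid lipase LIPA, which frees cholesterol from taken-up lipoproteins, 1.75-fold (adjusted p = 0.000251). All 4 were also called without the 5 animals.

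Genes of cell recruitment gave 5 higher and no lower of 15 tested, 2 without the 5 animals and 6 without animal 114. VCAM1 and ICAM1, to which leukocytes attach at the vessel wall, rose 1.54-fold (SE 0.13, adjusted p = 0.00219) and 1.48-fold (SE 0.14, adjusted p = 0.00771). The monocyte chemokine CCL2 had medians of 8.01 and 8.60 and rose 1.89-fold (SE 0.25, adjusted p = 0.0161), with 3 high animals above the highest low animal and an adjusted p of 0.0542 without the 5 animals. Of 19 endothelial genes none was called, beside 7.33% higher and 2.27% lower over all genes tested. Their median log2 difference was 0.09. PECAM1, which lines all vessels, had medians of 10.82 and 10.98 (log2 0.12, SE 0.10, adjusted p = 0.468).

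Actin remodelling and adhesion genes, which migrating cells use but which fibroblasts and fibres also express, were higher for 17 of 35 tested with none lower, and 14 were called without the 5 animals. CAPG, which caps actin filaments in macrophages, ran from 6.38 to 8.0 in the low and from 7.23 to 10.08 in the high animals and rose 2.23-fold (SE 0.18, adjusted p = 2.2e-05). The Arp2/3 subunit ARPC1B rose 2.01-fold (SE 0.16, adjusted p = 5.36e-05) and the calcium-binding S100A11 1.96-fold (SE 0.19, adjusted p = 0.000816).

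**Figure D3:**
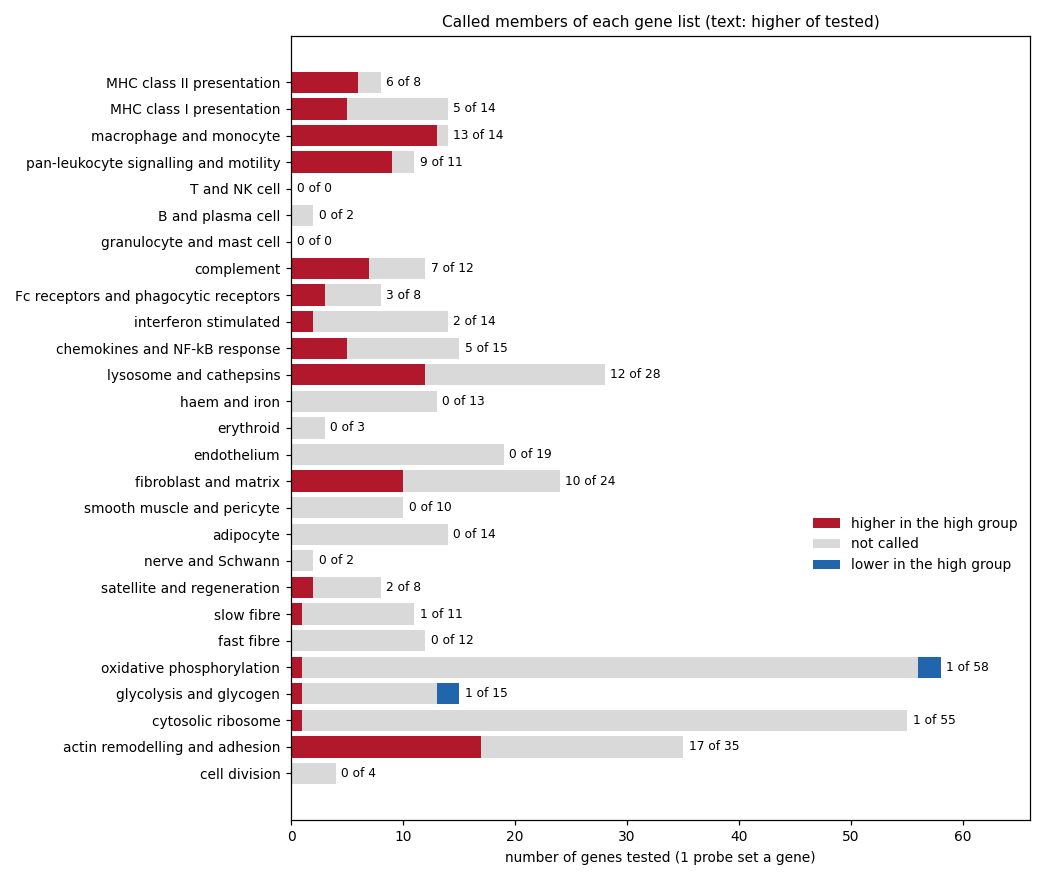
Horizontal bars give the number of genes tested in each list, split into higher in the high animals, not called and lower, with the number higher of the number tested beside each bar. Macrophage and monocyte genes (13 of 14) and pan-leukocyte genes (9 of 11) are mostly red, and endothelium (0 of 19), adipocyte (0 of 14) and smooth muscle (0 of 10) are grey. Over all genes tested 7.33% were higher, and in lists this short 0 is near that share.

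Connective tissue genes moved with the leukocyte genes in part. Of 24 fibroblast and matrix genes 10 were higher and none lower, with a median log2 difference of 0.38, but 2 were called without the 5 animals and 8 without animal 114. Their summed intensity ran from 49836 to 119280 in the low and from 71271 to 142470 in the high animals. TIMP1, an inhibitor of matrix proteases, had medians of 10.00 and 10.75 and rose 2.15-fold (SE 0.23, adjusted p = 0.00237). The high animals 23, 26, 108, 111 and 112 lay between 12.87 and 13.28 for TIMP1, and the next high animal at 11.63. Fibronectin FN1 rose 1.44-fold (adjusted p = 0.00902), the surface protein THY1 1.43-fold (adjusted p = 0.00649) and the collagen chain COL6A3 1.30-fold (adjusted p = 0.0142). Decorin DCN, a defining fibroblast marker, had medians of 13.54 and 13.70 (log2 0.18, SE 0.09, adjusted p = 0.183). Tenascin TNC, a matrix protein of growing and healing tissue, ran from 2.41 to 8.11 in the low animals (median 7.07) and from 6.27 to 10.29 in the high animals (median 8.24) and rose 3.06-fold (SE 0.37, adjusted p = 0.00431). The part of fibroblast content in the other results was not tested.

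No member was called among 10 smooth muscle, 14 adipocyte, 13 haem and iron, 3 erythroid, 4 cell division and 2 nerve and Schwann cell genes, in the fit of all 48 animals. Over all genes tested 7.33% were higher and 2.27% lower, and in lists this short no called member is near those shares. Without animal 114, 1 of the 2 nerve and Schwann cell genes was called lower. Among haem and iron genes, a second probe set of FTL was called higher (log2 0.48, adjusted p = 0.0352). The dim SLC11A1 was called higher in the fit of all probe sets (log2 0.83, adjusted p = 0.025). For smooth muscle the summed intensity ran from 34751 to 51858 in the low and from 30899 to 80434 in the high animals, and for adipocytes from 28617 to 74460 and from 16839 to 119750.

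Among fibre genes, the contractile proteins of embryonic and cardiac muscle differed. TNNT2, the cardiac troponin T that skeletal muscle makes before birth and during repair, ran from 6.01 to 9.16 in the low animals (median 7.48) and from 2.71 to 12.38 in the high animals (median 9.20), a 2.84-fold difference (SE 0.43, adjusted p = 0.0252). ACTC1, the cardiac actin with the same history, ran from 8.73 to 12.77 and from 7.78 to 14.80 and rose 2.47-fold (SE 0.34, adjusted p = 0.013). MYL4, a myosin light chain of the atrium and of embryonic muscle, named after its values were seen, rose 1.73-fold (SE 0.22, adjusted p = 0.0206). LOC396711 has no name in the RefSeq annotation used here, where it follows MYH4, MYH1 and MYH2, the fast myosin heavy chains, on chromosome 12. It ran from 7.06 to 10.25 in the low and from 7.14 to 14.21 in the high animals and rose 3.29-fold (SE 0.36, adjusted p = 0.00237).

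These 4 transcripts varied together, and for 3 of them the same 5 animals held the highest values. TNNT2 went with LOC396711 (r = 0.89 over the 24 animals of block 1 and 0.87 over the 50 of block 2) and with ACTC1 (r = 0.82 and 0.78), a description over arrays that share their scaling. TNNT2 was 12.38 in animal 26, 12.08 in 111, 11.78 in 112, 11.20 in 20 and 10.86 in 90, against at most 10.11 and a median of 8.61 in the other high animals. The same 5 animals held the 5 highest values of LOC396711, from 11.51 to 14.21, and of MYL4, from 9.25 to 11.24. For ACTC1 animals 112, 111 and 26 held the highest 3 values, while animals 20 and 90 ranked 5 and 9 of 74. The score ranks of the 5 among the 74 were 1, 4, 14, 3 and 2. Without them TNNT2 (adjusted p = 0.278), ACTC1 (0.168) and MYL4 (0.196) were not called and LOC396711 was (0.0299). The 5 animals were left out for their TNNT2, so a smaller difference of TNNT2 and of transcripts that vary with it follows from that choice. Since the score ranks of these animals were high, the same holds in part for other transcripts that go with the score.

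The interleukin IL18, which macrophages and other cells release in inflammation, followed these animals only in part. It ran from 5.81 to 8.66 in the low and from 6.72 to 12.89 in the high animals and rose 2.68-fold (SE 0.39, adjusted p = 0.0178). Animals 112, 111 and 26 held the 3 highest values (12.89, 12.57 and 12.52), and without the 5 animals its adjusted p was 0.159. Of 8 satellite cell and regeneration genes 2 were higher, beside 7.33% of all genes tested. They were the growth factor midkine MDK at 1.86-fold (SE 0.20, adjusted p = 0.00356) and CHRNA1 at 2.0-fold (SE 0.29, adjusted p = 0.0239). CHRNA1 is the acetylcholine receptor chain that spreads over the fibre when nerve contact is lost. A second probe set of MDK was not called (log2 0.26, adjusted p = 0.328). CHRNA1 had 2 high animals above the highest low animal and was not called without the 5 animals (adjusted p = 0.134).

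**Figure D4:**
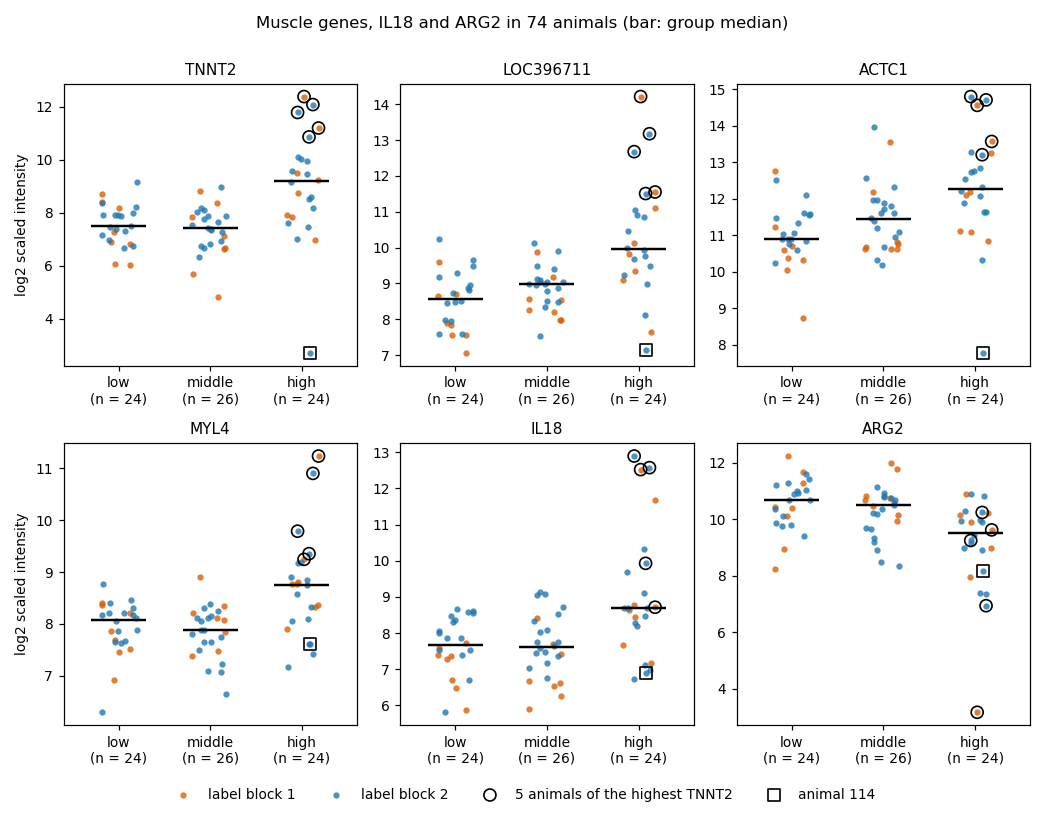
Log2 scaled intensity of TNNT2, LOC396711, ACTC1, MYL4, IL18 and ARG2 in the low, middle and high animals, with 1 point per animal, coloured by label block, a bar at the group median, circles on the 5 animals of the highest TNNT2 and a square on animal 114. The circles hold the highest values of TNNT2 (10.86 to 12.38), LOC396711 and MYL4, and for ARG2 2 of them, at 3.16 and 6.94, are the lowest of all 74 animals.

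Of the adult fibre type genes few were called, beside 7.33% higher and 2.27% lower over all genes tested. None of the 12 fast fibre genes was called, with a median log2 difference of -0.12 (-0.03 as deposited) and values below 0 for 12 of 12 (9 of 12 as deposited), and 1 of 11 slow fibre genes was higher, with a median of 0.01. Without the array of animal 23, 1 fast fibre gene was called lower, and without animal 114, 2 slow fibre genes were called higher. The gene called in all 48 animals was TPM3, a tropomyosin with slow fibre and cytoskeletal forms (1.36-fold, SE 0.09, adjusted p = 0.00179). Another of its probe sets was also called higher (log2 0.55, adjusted p = 0.0014), and one had the opposite sign and was not called (log2 -0.31, adjusted p = 0.435). Cytosolic ribosome genes gave 1 higher and no lower of 55, namely RPL3 at 1.46-fold (adjusted p = 0.00127).

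Few energy genes passed the test, and none was called lower on the values as deposited. Over all genes tested 7.33% were higher and 2.27% lower as scaled. Of 58 oxidative phosphorylation genes 2 were lower (3 without the array of animal 23) and 1 higher, with a median log2 difference of -0.12 as scaled and of -0.03 as deposited. The difference was below 0 for 55 of the 58 as scaled and 36 as deposited, and for 14 and 11 of the 15 glycolysis and glycogen genes. The ATP synthase subunit listed as ATP5J fell by 0.27 on the log2 scale (SE 0.08, adjusted p = 0.0214), from a median of 12.64 to one of 12.35. The succinate dehydrogenase subunit SDHB fell by 0.23 (SE 0.08, adjusted p = 0.047), was called in 16 of the 48 fits that left out 1 animal, and had a second probe set of the opposite sign that was not called (0.20, adjusted p = 0.444). COX6A1, the form of this cytochrome oxidase subunit that prevails outside striated muscle, rose 1.27-fold (SE 0.10, adjusted p = 0.0286). Among 15 glycolysis and glycogen genes the glycogen phosphorylase kinase subunit PHKB fell by 0.58 (SE 0.15, adjusted p = 0.014) and pyruvate kinase PKM by 0.23 (SE 0.07, adjusted p = 0.045), while hexokinase HK1 rose 1.74-fold (SE 0.17, adjusted p = 0.00242). Of these 6 genes HK1 alone was called without the 5 animals (adjusted p = 0.0232), and PKM was called in 24 of the 48 fits that left out 1 animal.

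The 12 genes with the largest downward differences were ARG2, WWP1, RHOBTB1, PHKB, HR, SLC2A12, ATL2, PRKAA2, BCAT2, MAPK6, CDKN2C and SMIM8, and ARG2 alone went past 1 on the log2 scale. On the values as deposited all 12 had the same sign and 5 were called, ARG2, RHOBTB1, HR, PRKAA2 and BCAT2. ARG2, the mitochondrial arginase, ran from 8.23 to 12.24 in the low animals (median 10.69) and from 3.16 to 10.90 in the high animals (median 9.53), and fell by 1.45 on the log2 scale (SE 0.38, adjusted p = 0.0133). In 21 of 24 high animals it was below the median of the low animals of their block. A second probe set of ARG2 fell by 1.24 (SE 0.29, adjusted p = 0.00523), and the first was called without the 5 animals (adjusted p = 0.0405), although animals 26 and 111 held the lowest 2 values of 74.

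PRKAA2, the catalytic subunit of the energy sensor AMPK that prevails in muscle, ran from 11.44 to 12.76 in the low and from 10.23 to 12.23 in the high animals and fell by 0.50 (SE 0.11, adjusted p = 0.00359). BCAT2, the mitochondrial enzyme that starts the breakdown of branched-chain amino acids, had medians of 9.32 and 8.94 and fell by 0.48 (SE 0.10, adjusted p = 0.00233). The sugar transporter SLC2A12 fell by 0.55 (SE 0.14, adjusted p = 0.00978) and the endoplasmic reticulum shaping ATL2 by 0.51 (SE 0.12, adjusted p = 0.00852). WWP1, a ubiquitin ligase, fell by 0.74 (SE 0.19, adjusted p = 0.0118), RHOBTB1 by 0.66 (SE 0.17, adjusted p = 0.0132) and SMIM8 by 0.47 (SE 0.11, adjusted p = 0.0074). PRKAA2, BCAT2, ATL2 and ARG2 were called without the 5 animals and the other 8 were not. HR, a nuclear corepressor (log2 -0.56, adjusted p = 0.0397), the kinase MAPK6 (log2 -0.48, adjusted p = 0.0332) and the cell cycle inhibitor CDKN2C (log2 -0.48, adjusted p = 0.0442) were called in 34, 45 and 28 of the 48 fits that left out 1 animal.

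Animal 114, a high animal of block 2 with a score of 1.20 and rank 6 of 74, differed from all others in its blood cell transcripts. It held the highest of 74 values for 8 of 9 granulocyte and mast cell genes, all 5 erythroid genes and 14 of 15 cell division genes on the array. The calprotectin chain S100A9, abundant in neutrophils, was 14.62 in this animal, with a highest value of 8.40 and a median of 5.74 in the other 73. Lactoferrin LTF was 13.77 against at most 7.13, and PGLYRP1, which neutrophils store in granules, 12.80 against at most 6.64. ELANE, the neutrophil elastase that is transcribed in granulocyte precursors, was 11.76 against at most 6.53. KIT (7.73 against at most 7.64) and MS4A2 (8.44 against at most 8.06), both mast cell genes, were highest by small margins. Red cell precursor genes also stood out, although HBB, an adult globin chain, hardly did (9.39 against at most 9.31). AHSP, the chaperone of alpha globin, was 12.60 against at most 7.92, HBM, a globin of the alpha cluster, 12.32 against at most 8.69, and ALAS2, the first enzyme of haem synthesis in red cells, 12.70 against at most 10.09.

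In the same animal the fibre transcripts were low. Its TNNT2 (2.71), ACTC1 (7.78) and MYH7 (14.13) were the lowest of 74, and its summed intensity of slow fibre genes was 89217, below the 196990 to 420910 of the other 73. Its TYROBP was 10.42 and its CD163 11.01, while its CD74 of 11.01 was the lowest among the high animals. Among the other high animals the highest sum of the 3 erythroid genes tested was 1068, against 1822 in the low animals. Left out, animal 114 changed TNNT2 to an adjusted p of 0.00118 and ACTC1 to 0.000652, while HR (0.0576), PKM (0.0559) and SDHB (0.0699) were not called. These animals and genes were singled out after their values were seen.

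**Figure D5:**
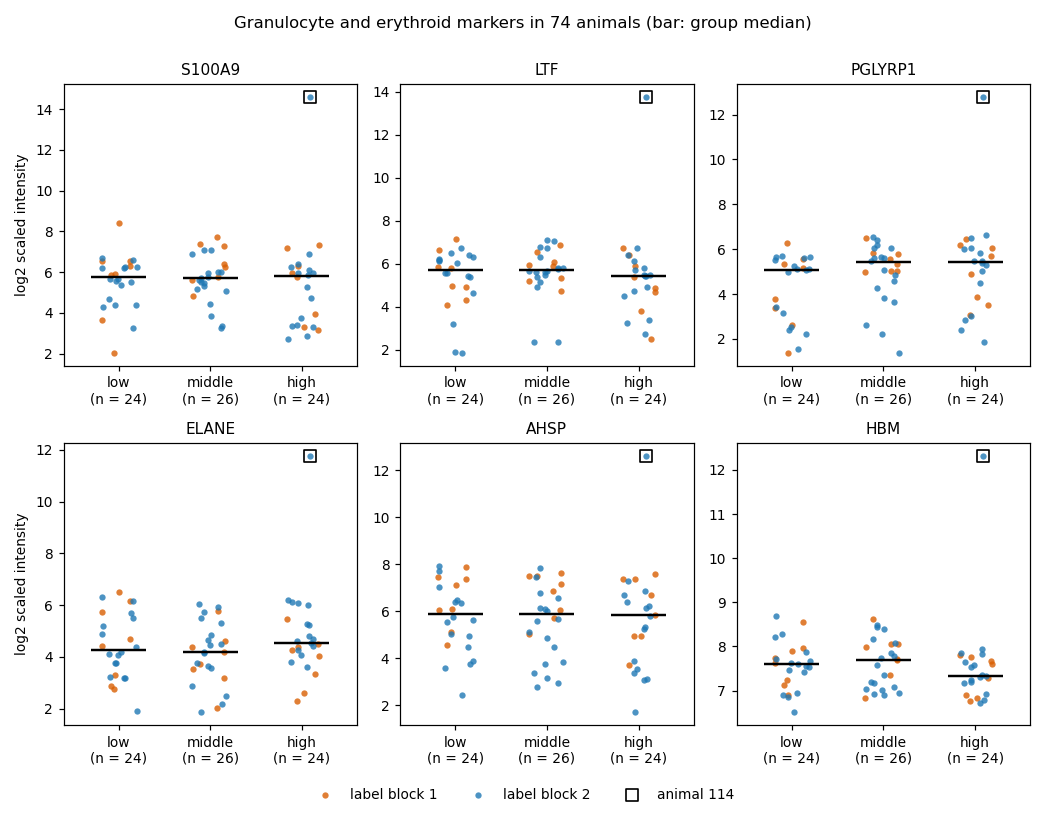
Log2 scaled intensity of the granulocyte genes S100A9, LTF, PGLYRP1 and ELANE and the erythroid genes AHSP and HBM in the low, middle and high animals, with 1 point per animal, coloured by label block, a bar at the group median and a square on animal 114. The square lies far above all other points in each panel, for S100A9 at 14.62 against at most 8.40, and the medians of the groups are close together.

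The 26 middle animals, which the groups did not use, gave no called relation. With their score as a continuous variable no probe set was called, with 441 of 11450 at an unadjusted p under 0.05 in limma. The slope was positive for 61.9% of the 625 probe sets called higher, for 55.6% of the 288 called lower and for 51.2% of all tested. The score of these animals spans -0.39 to 0.38, a narrow range beside that of the groups.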

How the data were processed

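RNA of M. longissimus dorsi of 74 pigs was read on 1 array per animal. The authors scanned the arrays, applied global scaling in GCOS 1.1.1 and used PLIER, and the algorithm behind the deposited intensity values is not given in the sources read for this work. The table lists 24123 probe sets, 124 of them controls. Scaling brought the trimmed mean of every array to 500 (2% left out at each end), values under 1 were raised to 1, and log2 was taken. The 11453 probe sets with the highest medians were kept, which stood in for present calls. Without the 3 score genes 11450 were tested with limma 3.58.1 in R 4.3.3, with label block as covariate, and checked on simulated data. Scores and counts were made in Python 3.11.15 with numpy 2.4.6 and pandas 2.3.3. A gene is its probe set of the highest median. Of the kept probe sets 6153 had 1 symbol, 130 several and 5170 none, in the platform annotation, which can be old, and symbols were looked up in RefSeq through Entrez IDs (9961 of 10069 matched).

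Named genes were of several kinds. The 12 of the largest difference in each direction were taken among called genes of the same sign in both label blocks. The others were up to 4 of the smallest p in each of 27 lists, defining cell type markers and genes called against their list. The members and lists were chosen with earlier results of these data known. Alternatives were the values as deposited, quantile normalization, log2 of the value plus 16, no filter, no block, each block alone, the array level as covariate, scores without 1 gene, the highest and lowest 25% of scores, the continuous score and leaving out the 2 highest and 2 lowest scores. Alternatives chosen after seeing the data left out each animal, the array of the lowest level, the 5 animals of the highest TNNT2 and animal 114. No depth applies to arrays, whose number limits the precision.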

Additional observations from a re-analysis of the deposited data

Results flagged for a closer look

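In the groups of 8 animals of label block 1, single values were checked for a gap to the nearest other value that takes up more of the range of the group than Dixon's critical value for 8 values allows, over 54 groups of 27 genes. Chance flags about 1 in 20 groups, and 4 values stood apart. TNC was 2.47 in animal 25, a low animal, with the next value at 6.32. ARG2 was 3.16 in animal 26, a high animal, with the next at 7.97. MAPK6 was 9.95 in animal 23, the high animal with the array of the lowest level before scaling, with the next at 11.21. MYL4 was 11.24 in animal 20, a high animal, with the next at 9.25.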

How the results depend on the processing

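All counts are of probe sets called higher and lower in the high animals, 625 and 288 as reported. The higher count fell to 409 without the block covariate, 7 in block 1 alone, 82 in block 2 alone, 217 with a score without TYROBP, 276 without the 2 highest and 2 lowest scores, 171 without the 5 animals of the highest TNNT2 and 133 without these and animal 114. It rose to 960 with the array level as covariate, 1290 with a score without CD163 and 1547 with the continuous score. The lower count, in the same order, was 127, 0, 5, 50, 84, 28 and 16, and then 887, 1192 and 1349. It was 16 with the values as deposited, 119 with no filter and 459 with the highest and lowest 25% of scores. For block 1 alone, 2245 of 11450 probe sets had an unadjusted p under 0.05 in limma. Leaving out 1 animal at a time gave 463 to 777 higher and 164 to 393 lower, and the lower count moved by more than 1.5 times without animal 26 (164), 111 (164) and 4 (191). In the middle animals 1 probe set was called without the filter, against 0. The causes were not tested.

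Of the 71 named genes called among the probe sets tested, none changed direction under any alternative, and 63 were called with any 1 animal left out. Every called probe set had the same sign in both label blocks, so the fits of a single block could not change a direction. Most other alternatives share their animals with the main fit. Of the 12 largest upward genes, 1 was called in block 1 alone and 6 in block 2 alone. Of the 12 downward genes these counts were 0 and 2. No paired analysis was possible because the animals form a single group whose label numbers are each used once. Dim probe sets limit what was measured of lymphocyte genes.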
